A study of Mus musculus with 33 samples.

Results

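The libraries described here are the 4 GFP-medium and the 4 bulk libraries of the Zfp42 reporter line, 8 of the 33 samples of a screen that mutated sequence with CRISPR in embryonic stem cells of the mouse. They were chosen by their labelled population, and all 3918 guide RNAs (gRNAs) of the line's library were kept: 3908 with an interval on chromosome 8 and 10 that target the GFP sequence. The cells of every group carried GFP in place of sequence at the transcription start site of Zfp42 and a placeholder guide at the ROSA26 locus, which the library gRNAs replace. They were grown in serum medium with LIF and inhibitors of GSK-3 and MEK. Bulk libraries came from the unsorted population after electroporation of the gRNAs, and GFP-medium libraries from cells sorted for an intermediate GFP signal. Libraries of the 2 populations with the same number came from the same replicate of the reporter line. The sort gates, the number of sorted cells and whether the replicates were separate cultures are not stated in the labels. The p-values therefore speak of the spread among libraries, which may be technical. Another population of the line, sorted as GFP-negative, also has 4 libraries and is used where a value needs a comparison. Its libraries also enter the main model fits, whose p-values rest on the spread of all 12 libraries of the line. The permutation tests of GFP-medium against bulk use the 8 libraries alone.

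Zfp42, also called Rex1, encodes a zinc finger protein and is a marker gene of undifferentiated embryonic stem cells, lost when they leave the naive state. In a tiling screen Cas9 cuts at each gRNA's target and repair leaves short insertions or deletions there, so a gRNA gathers in cells with less reporter signal where its target sequence matters for reporter expression. Promoters sit at the start of a gene and enhancers can act from many kilobases away. The bulk population gives the abundance of each gRNA before the sort, and the comparison asks at which positions around Zfp42 gRNAs took a larger or smaller part of the counts in cells that kept part of the GFP signal.

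The targets lie in clusters between chr8:43180015 and chr8:43365026 of mm10, with Zfp42 on the minus strand at chr8:43295067-43307009. Upstream therefore means higher coordinates. RefSeq lists no other gene under the upstream clusters. In the farther downstream clusters 62 gRNAs target Triml1 and 89 target Triml2. The promoter sequence of Zfp42 is shown because it is the only stretch at the gene for which gRNA targets could be read as bases. It is RefSeq's window for GRCm38.p6, chr8:43306960-43307259, from 250 bases before the annotated start to 50 after it, on the minus strand. The capitals mark the targets, PAM included, of the 2 gRNAs in it that were above their paired bulk library in all 4 pairs.
Zfp42 promoter: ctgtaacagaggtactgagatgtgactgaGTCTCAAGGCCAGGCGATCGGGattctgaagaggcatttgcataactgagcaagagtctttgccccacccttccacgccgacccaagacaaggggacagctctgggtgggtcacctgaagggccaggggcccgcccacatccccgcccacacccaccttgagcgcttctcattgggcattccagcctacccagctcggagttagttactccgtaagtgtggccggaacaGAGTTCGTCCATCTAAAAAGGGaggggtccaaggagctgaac
The window holds 1 octamer ATTTGCAT, the recognition motif of POU factors, at chr8:43307188-43307195, 186 bases before the start; the motif was searched on both strands and occurs in 1.74% of 32851 promoter windows of the same length. None of the 56 gRNAs with a target inside the window overlaps it.

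The 5 gRNAs of this window printed here, from the 5′ end of the spacer and with the PAM in capitals, show how differently neighbouring targets were counted. The first pair were above paired bulk in all 4 pairs, the third had the highest mean level of the window in GFP-medium libraries, and the last pair start at the same base and differ by 1 base in length. The last 3 were chosen after their values were seen.
chr8:43306979-43307000: gagttcgtccatctaaaaaGGG
chr8:43307208-43307229: gtctcaaggccaggcgatcGGG
chr8:43307009-43307030: gttagttactccgtaagtgTGG
chr8:43307067-43307088: gctcaaggtgggtgtgggcGGG
chr8:43307067-43307089: gctcaaggtgggtgtgggcgGGG
The interval names are the deposited ones. Of the 94 gRNAs inside the promoter windows of Zfp42 and Triml2, all 94 end in an NGG PAM on either strand when the interval is moved by 1 base to higher coordinates, against 28 of 94 when it is read as written, so the bases printed lie 1 base above the named interval.

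The bulk libraries held 39096 to 82959 gRNA counts and detected 1598 to 1689 gRNAs, and the GFP-medium libraries held 121455 to 268197 counts on 475 to 957 gRNAs. One count is worth 12.1 to 25.6 CPM (counts per 1000000 gRNA counts of a library) in bulk and 3.73 to 8.23 CPM in GFP-medium libraries, so the sorted libraries were the more deeply counted. Of the 3918 gRNAs 2200 had no count in any of the 12 libraries of the line. Placeholder counts, left out of all totals, made up 1.22% and 1.09% of bulk replicates 1 and 2 but 22.5% and 23.5% of replicates 3 and 4, and 0.0212%, 0.0760%, 4.12% and 4.27% of GFP-medium replicates 1 to 4. Values within replicates 1 and 2 and within replicates 3 and 4 are therefore given beside the results.

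Counts in GFP-medium libraries were concentrated on few gRNAs. The gRNAs that held 50% of a library's counts numbered 311, 354, 351 and 357 in bulk and 19, 59, 62 and 43 in GFP-medium replicates 1 to 4. All GFP-medium libraries thus lay far below all bulk libraries. The most counted gRNA took 0.304% to 0.568% of a bulk library and 10.1%, 3.12%, 1.90% and 5.74% of the GFP-medium libraries. In GFP-medium replicate 1 that gRNA was chr8:43304251-43304272 in the gene body, at 101474 CPM, against 11.2, 82.3 and 660 CPM in GFP-medium replicates 2 to 4 and 506 to 2448 CPM in bulk. The curves of cumulative counts separate the populations over their whole length.

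**Figure D1:**
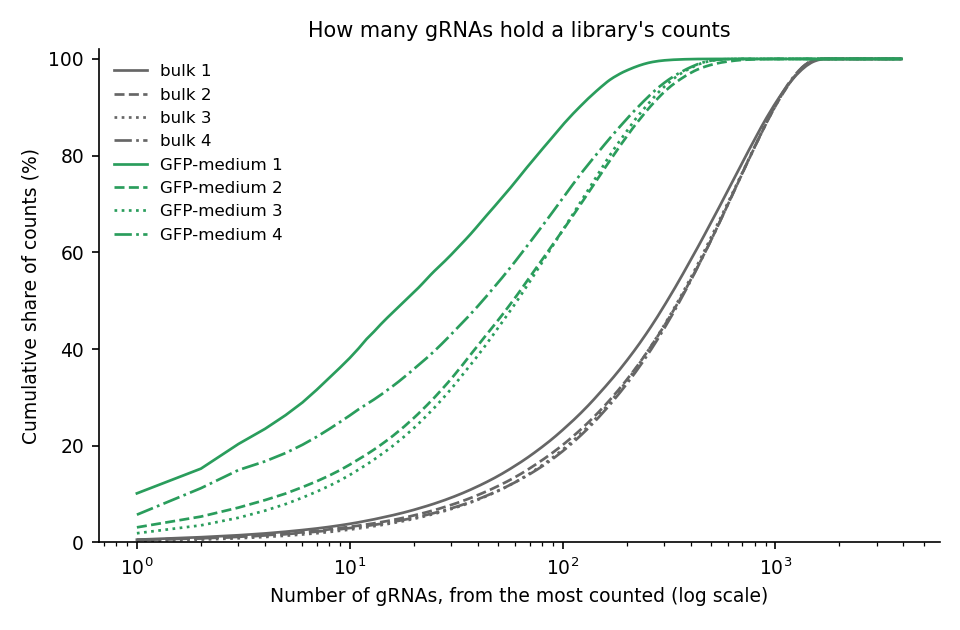
Cumulative share of counts (%) against the number of gRNAs, taken from the most counted down (log scale), for 4 bulk libraries (grey) and 4 GFP-medium libraries (green). The 10 most counted gRNAs held 2.65% to 3.85% of bulk counts and 13.9% to 38.1% of GFP-medium counts.

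Few gRNAs were shared among the most counted ones of the sorted libraries. Of the 50 most counted gRNAs of each library, 142 appeared in the lists of a single GFP-medium library, 19 in 2, 4 in 3 and 2 in all 4. In bulk the numbers were 104, 24, 12 and 3. Both gRNAs found in all 4 GFP-medium lists, chr8:43320710-43320732 and chr8:43320967-43320988, target the cluster 13 to 17 kb upstream, and so do 2 of the 4 found in 3 lists. That cluster holds 200 of the 1718 counted gRNAs. Of the bulk gRNAs found in 3 or 4 lists, chr8:43323463-43323484 alone targets it. Of 1718 counted gRNAs 1463 had a count in all 4 bulk libraries and 196 in all 4 GFP-medium libraries, while 466 had a count in only 1 GFP-medium library.

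Around the gene, 3 neighbouring stretches gained share in GFP-medium cells and the outer ones lost share. The promoter region (within 2 kb of the annotated 5′ end), the stretch 2 to 5 kb upstream and the cluster 13 to 17 kb upstream rose by 0.73, 0.97 and 1.09 on the log2 scale. The clusters 21 to 27 kb and 45 to 58 kb upstream, the stretch within 10 kb downstream of the gene and the farther downstream clusters fell. The middle of the gene body, the 3′ end and the GFP-targeting gRNAs did not pass the test. The region sizes given below include gRNAs without a count. Counted were 196 of 453 gRNAs in the promoter region, 124 of 275 at 2 to 5 kb and 200 of 442 at 13 to 17 kb upstream. In the regions that fell, in the order above, 291 of 676, 279 of 616, 243 of 556 and 108 of 240 were counted. Shares of a library sum to a fixed total, so a gain of some gRNAs and a loss of the others look the same and each change is a relative one.

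The 453 gRNAs of the promoter region took 12.8%, 13.2%, 13.4% and 13.2% of bulk counts and 22.7%, 22.2%, 22.4% and 20.3% of GFP-medium counts (13.2% ± 0.245 against 21.9% ± 1.10, SD, n = 4 each). Every GFP-medium library lay above every bulk library, and the sorted libraries differed little among themselves. The 275 gRNAs 2 to 5 kb upstream took 8.98%, 7.58%, 7.31% and 7.34% of bulk and 19.8%, 14.4%, 14.2% and 12.6% of GFP-medium counts. Here GFP-medium replicate 1 stood highest, as did bulk replicate 1.

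The 442 gRNAs 13 to 17 kb upstream took 9.62%, 11.1%, 10.5% and 11.1% of bulk and 17.2%, 18.6%, 21.1% and 33.15% of GFP-medium counts (10.6% ± 0.710 against 22.5% ± 7.28). GFP-medium replicate 4 stood far above the other 3, and without it the log2 ratio was 0.84. By the exact permutation test of shares (2-sided, 4 against 4 libraries), 3 of the 10 regions were higher (30% of the regions) and 4 were lower (40%). All 7 reached the smallest p this unpaired test allows, 0.0286, which is 0.0408 after Benjamini-Hochberg adjustment over the 10 regions. When populations are swapped only within same-numbered pairs, the smallest possible p is 0.125. All 7 regions had that value, with the same direction in 4 of 4 pairs. With the pairing kept, no region could therefore pass 0.05.

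**Figure D2:**
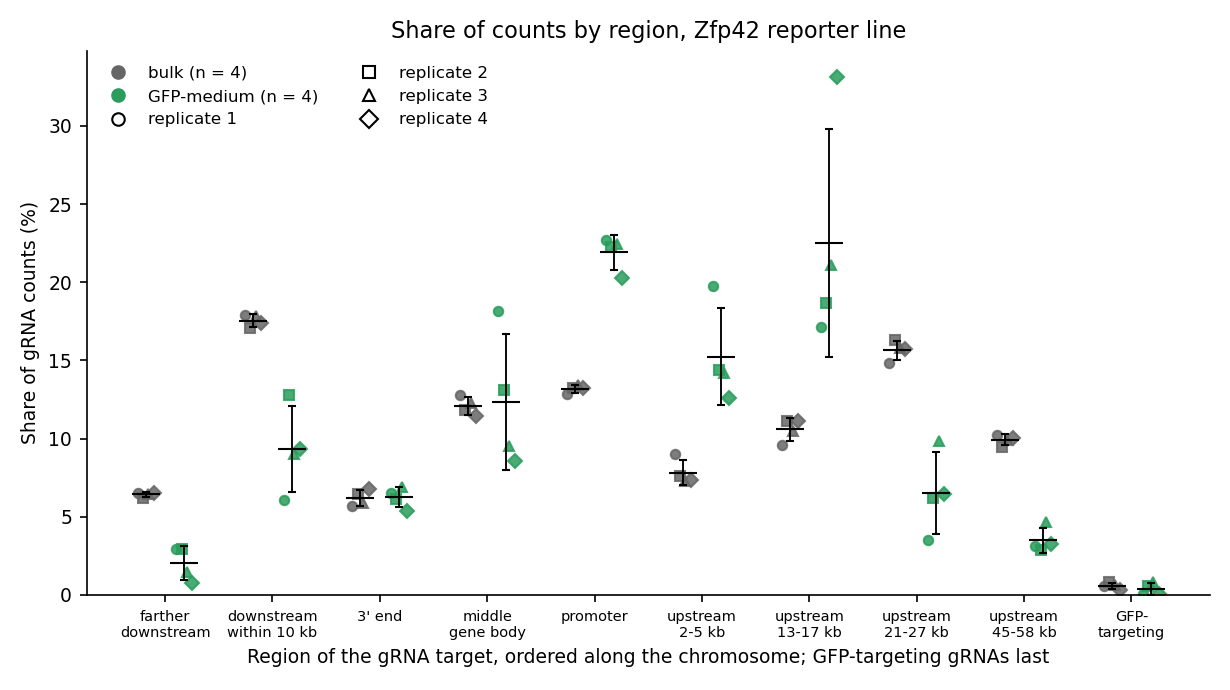
Share of gRNA counts (%) by target region in each library, with bulk in grey, GFP-medium in green, a symbol shape per replicate, and the mean ± SD of 4 libraries in black. GFP-medium libraries lay at 20.3% to 22.7% in the promoter region, where bulk libraries lay at 12.8% to 13.4%.

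The regions that lost share lie on both sides of the gained ones. The 676 gRNAs 21 to 27 kb upstream took 14.8% to 16.3% of bulk counts and 3.49%, 6.22%, 9.84% and 6.49% of GFP-medium counts, a log2 ratio of -1.27. The 616 gRNAs 45 to 58 kb upstream fell from 9.92% ± 0.350 to 3.49% ± 0.818 (log2 ratio -1.51). Downstream, the 556 gRNAs within 10 kb of the gene end fell from 17.6% ± 0.386 to 9.31% ± 2.75 (log2 ratio -0.91), and the 240 farther ones from 6.44% ± 0.148 to 2.03% ± 1.07 (log2 ratio -1.67). In none of these 4 regions did the 2 groups of libraries overlap.

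The middle of the gene body and the 3′ end were close to their bulk shares on average. The 3′ end region held 5.69%, 6.45%, 5.88% and 6.80% of bulk counts and 6.53%, 6.16%, 6.92% and 5.40% of GFP-medium counts, with overlapping groups. The middle gene body held 18.2%, 13.1%, 9.53% and 8.58% of GFP-medium counts against 11.5% to 12.8% of bulk counts. Its GFP-medium libraries of replicates 1 and 2 lay above bulk and those of replicates 3 and 4 below, and in replicate 1 the single gRNA chr8:43304251-43304272 supplied 55.8% of the region's counts. The permutation p was 0.943 for the middle gene body and 0.914 for the 3′ end.

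The direction of all 7 changed regions was the same within replicates 1 and 2 and within replicates 3 and 4, where 2 libraries face 2 and no test is given. The log2 ratio was 0.79 and 0.68 for the promoter region, 1.04 and 0.87 for 2 to 5 kb upstream, and 0.79 and 1.33 for 13 to 17 kb upstream. It was -1.68 and -0.95 for 21 to 27 kb upstream, -1.72 and -1.33 for 45 to 58 kb, -0.89 and -0.94 for the nearer downstream stretch and -1.13 and -2.52 for the farther one. Counting detected gRNAs in place of counts, the cluster 13 to 17 kb upstream had a log2 ratio of 0.0058 and the nearer downstream stretch one of 0.14. The cluster 13 to 17 kb upstream thus held about the same share of the detected gRNAs as in bulk.

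The profile differed from that of the GFP-negative cells of the same line. The promoter region was higher in GFP-medium than in GFP-negative libraries (15.5% ± 2.53 in the latter, adjusted p = 0.0476 by the exact permutation test over 10 regions), as were 2 to 5 kb upstream (3.32% ± 0.968) and 13 to 17 kb upstream (4.65% ± 1.59), each at the same p. So was the cluster 45 to 58 kb upstream (2.03% ± 0.216). The GFP-targeting gRNAs (23.4% ± 5.74 in GFP-negative libraries) and the 3′ end (19.7% ± 3.37) were lower in GFP-medium libraries, also at 0.0476. The shares of a library share a common total, so a large GFP-targeting share leaves less for every other region of the GFP-negative libraries. That share was 21.5%, 28.2%, 27.8% and 16.1% in GFP-negative replicates 1 to 4. With the GFP-targeting counts left out of the totals, the 2 populations would overlap in the promoter region and at 45 to 58 kb upstream. They would stay apart at 2 to 5 kb and 13 to 17 kb upstream. The differences were not tested on such totals.

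The 10 GFP-targeting gRNAs, the positive controls of the screen, took 0.574%, 0.805%, 0.645% and 0.330% of bulk counts and 0.0538%, 0.583%, 0.838% and 0.0606% of GFP-medium counts. The groups overlapped, and the exact permutation p was 0.343. GFP gRNA 5 had no count in any library. Of the other 9, numbered in table order, 6 were below paired bulk in all 4 pairs and 3 were above it in 1 pair. Of all 1718 counted gRNAs 1051 (61.2%) were above paired bulk in no pair, a share near that of the GFP-targeting gRNAs. GFP gRNA 4 reached 4911 CPM in GFP-medium replicate 2 and lay at 99.1, 897 and 108 CPM in the other 3. GFP gRNA 8 reached 6307 CPM in GFP-medium replicate 3 and lay at 6.73 to 44.7 CPM elsewhere. Without the most counted GFP-targeting gRNA of each library the log2 ratio was -2.02, with an adjusted permutation p of 0.0357. The removed gRNA held 41.2%, 84.2%, 75.2% and 18.9% of these counts in GFP-medium replicates 1 to 4 and 26.0% to 39.6% in bulk. The same removal lowered the log2 ratio of every region, that of the 3′ end from 0.01 to -0.31. A lower ratio under this setting is thus not particular to the GFP-targeting gRNAs. In GFP-negative libraries GFP gRNA 4 had a mean of 56875 CPM.

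At a resolution of 1 kb the tiles called higher lay at the start of the gene and in 2 adjoining tiles of the cluster 13 to 17 kb upstream. Counts summed over each tile with at least 5 counted gRNAs, and over the GFP-targeting gRNAs, were tested with edgeR's quasi-likelihood test. Of these 42 features 3 were called higher (7.14%) and 0 lower (0%) after Benjamini-Hochberg adjustment. Without adjustment, 7 were higher and 7 lower at p under 0.05. With the replicate number as a block the calls were 3 higher and 3 lower, and DESeq2 called 5 higher and 4 lower. Using replicates 1 and 2 alone or 3 and 4 alone, edgeR called 0 in either direction.

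The tile chr8:43306000-43306999, the first kilobase of the gene, held 2.53%, 2.74%, 2.96% and 2.94% of bulk counts and 7.02%, 5.11%, 6.17% and 6.18% of GFP-medium counts. All GFP-medium libraries lay above all bulk libraries, and edgeR gave a log2 change of 1.13 (SE 0.211, adjusted p = 0.00258). Each SE of a tile was derived from its log2 change and unadjusted p-value and adds no evidence to them. Within it the 500 bp from chr8:43306500 carried the higher share, with 2.29% ± 0.184 of bulk and 5.68% ± 0.902 of GFP-medium counts, whereas the 500 bp from chr8:43306000 held 0.500% ± 0.0238 and 0.440% ± 0.305. GFP-negative libraries held 3.67% ± 0.662 in the whole tile. Tiles with changes of similar size that were not called lay in the stretch 2 to 5 kb upstream. The tile from chr8:43311000 held 2.34% ± 0.363 of bulk and 5.35% ± 1.98 of GFP-medium counts, with no overlap (log2 change 1.19, SE 0.470, edgeR adjusted p = 0.0843). The tile from chr8:43310000 held 1.41% ± 0.101 and 3.41% ± 1.79, with overlap (log2 change 1.27, SE 0.497, edgeR adjusted p = 0.0843). DESeq2 called both higher (adjusted p = 0.0377 each).

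The tile chr8:43320000-43320999, 13 to 14 kb upstream, held 2.27%, 2.72%, 2.42% and 2.89% of bulk counts and 5.27%, 8.59%, 7.79% and 7% of GFP-medium counts. Its log2 change was 1.48 (SE 0.368, edgeR adjusted p = 0.0208). Its 2 parts differed. The 500 bp from chr8:43320000 held 0.696% to 0.825% of bulk counts and 0.0170%, 0.0175%, 0.119% and 0% of GFP-medium counts, though edgeR on 500-bp windows did not call it (adjusted p = 0.302). The next 500 bp, from chr8:43320500, held 1.45%, 1.99%, 1.72% and 2.07% of bulk and 5.25%, 8.57%, 7.67% and 7% of GFP-medium counts (edgeR adjusted p = 0.00265).

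The adjoining tile chr8:43321000-43321999 held 2.71%, 2.99%, 3.02% and 3.31% of bulk counts and 8.17%, 5.19%, 7.18% and 12.7% of GFP-medium counts, with replicate 4 highest (log2 change 1.46, SE 0.384, edgeR adjusted p = 0.0210). Beyond it the differences were smaller. The tile from chr8:43322000 went from 2.17% ± 0.175 to 3.82% ± 2.35 and the tile from chr8:43323000 from 2.73% ± 0.201 to 3.10% ± 2.25, neither past the threshold. GFP-negative libraries held 1.41% ± 0.897 and 1.05% ± 0.570 in the 2 called upstream tiles. The tile at the gene start kept its call when any of the 8 libraries was left out. The tile from chr8:43320000 lost it without any 1 of the bulk libraries or without GFP-medium replicate 3, and the tile from chr8:43321000 kept it only without GFP-medium replicate 2.

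**Figure D3:**
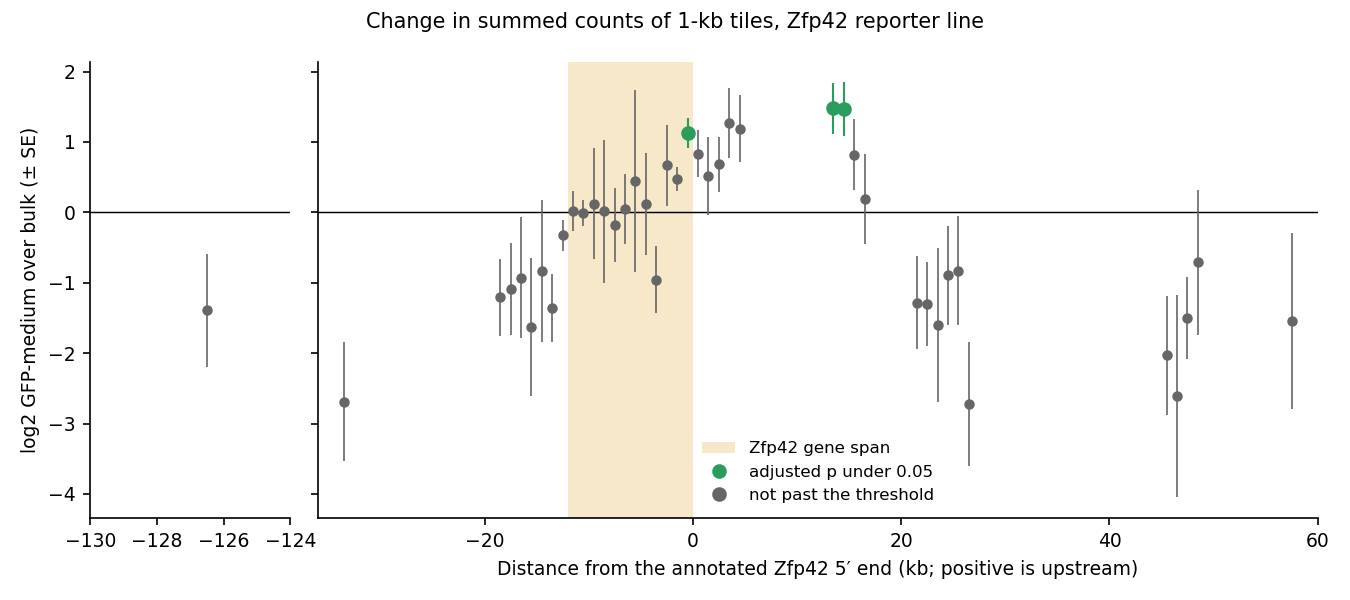
Log2 change of summed counts in GFP-medium over bulk libraries for 1-kb tiles (edgeR, ± SE derived from the change and its p-value). The horizontal axis gives the distance of the tile's middle from the annotated Zfp42 5′ end in kb, with positive values upstream. The left panel holds the farthest downstream tile. The 3 green tiles passed an adjusted p of 0.05, and tiles beyond 20 kb upstream and downstream of the gene lie below 0.

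The tiles with the smallest p among those with lower values stood far from the gene start. The tile from chr8:43333000, 26.0 kb upstream, held 1.49% to 2.00% of bulk counts and 0.0515%, 0.575%, 0.263% and 0.149% of GFP-medium counts (log2 change -2.73, SE 0.880, edgeR adjusted p = 0.0572, and 0.0314 with the replicate block). The tile from chr8:43273000, downstream, held 1.72% to 2.05% and 0.0453%, 0.782%, 0.111% and 0.216% (log2 change -2.69, SE 0.848, adjusted p = 0.0572, and 0.0314 with the block). The third tile called under the block, from chr8:43330000, went from 2.61% ± 0.181 to 0.860% ± 0.868. The tiles from chr8:43293000, chr8:43354000 and chr8:43352000 had log2 changes of -1.36, -1.50 and -2.03 with edgeR adjusted p-values of 0.0843, 0.0843 and 0.101. In all 5 tiles with the smallest p the 2 groups of libraries did not overlap.

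Single gRNAs were tested with edgeR's quasi-likelihood test on 1342 of the 3918 gRNAs, those that passed its filter on low counts. It called 0 higher (0%) and 265 lower (19.7%), or, with no adjustment of the p-values, 3 higher and 384 lower at 0.05. DESeq2 called 33 higher (2.46%) and 286 lower (21.3%), and limma-voom 0 and 119. The scaling differs between the tools: over the tested gRNAs the log2 change had a median of -1.25 with TMM, the scaling of the edgeR fit, and 0.03 with DESeq2. With TMMwsp scaling, where the median was 0.06, edgeR called 3 higher. Among them was chr8:43304251-43304272, the gene-body gRNA that was above paired bulk in GFP-medium replicate 1 alone. The 33 DESeq2 calls comprised 16 of 169 tested gRNAs in the promoter region (9.47%) and 6 of 112 at 2 to 5 kb upstream (5.36%). The others were 9 of 152 at 13 to 17 kb upstream (5.92%) and 2 of 80 at the 3′ end (2.5%). The share at the 3′ end was near the 2.46% of all tested gRNAs. There were 0 of 153 in the middle gene body, 0 of 9 among the GFP-targeting gRNAs and 0 of 667 in the 4 regions that lost share.

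The lower calls were spread over every region except the GFP-targeting gRNAs. The share of tested gRNAs that edgeR called lower was 7.69% in the promoter region, 11.6% at 2 to 5 kb upstream, 23.03% at 13 to 17 kb, 25.7% at 21 to 27 kb and 39.7% at 45 to 58 kb upstream. It was 14.4% in the middle gene body, 7.50% at the 3′ end, 15.8% in the nearer and 30.0% in the farther downstream stretch, and 0 of the 9 tested GFP-targeting gRNAs were called. The share of the 13 to 17 kb cluster was near that of all tested gRNAs, and with the replicate block it was 26.3% against 29.1%. Of the 265 gRNAs called lower, 168 had no count in any GFP-medium library. Using replicates 1 and 2 alone edgeR called 335 lower, and using replicates 3 and 4 alone it called 0.

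Of the 1718 counted gRNAs 16 were above their paired bulk library in all 4 pairs and 1051 (61.2%) in none. The 16 comprised 7 of the 196 counted gRNAs of the promoter region and 5 of the 200 at 13 to 17 kb upstream. The others were 3 of the 124 at 2 to 5 kb upstream and 1 of the 183 in the middle gene body. Counting gRNAs above paired bulk in at least 3 of 4 pairs gave 76 of 1718 (4.42%). That share was 11.2% in the promoter region, 13.7% at 2 to 5 kb and 10.0% at 13 to 17 kb upstream. It was 1.03% at 21 to 27 kb, 0.358% at 45 to 58 kb upstream, 0.823% in the nearer downstream stretch and 0% in the farther one. In the regions that did not pass the test it was 7.06% at the 3′ end, 2.73% in the middle gene body and 0% for the GFP-targeting gRNAs. Above paired bulk in no pair were 54% of the counted gRNAs at 13 to 17 kb upstream, 39.8% in the promoter region and 33.9% at 2 to 5 kb upstream. In the regions that lost share, 59.7% to 82.8% were above it in no pair. Also where share was gained, only a minority of gRNAs thus rose in most pairs. Complete separation, with every GFP-medium library above every bulk library, was seen for 10 of 1718 gRNAs (0.582%), and the opposite for 689 (40.1%). At 13 to 17 kb upstream the former was seen for 4 and the latter for 72 of the 200 counted gRNAs.

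The gRNA chr8:43320710-43320732, 13.7 kb upstream, led the gRNAs that were above bulk in all 4 pairs. The leading gRNAs were picked by their pairs and their GFP-medium level in these same libraries. Their separation from bulk and their small p-values follow in part from that choice and are a description. It had 539, 711, 622 and 742 CPM in bulk and 31342, 11395, 11700 and 5353 CPM in GFP-medium libraries. Every GFP-medium library lay above every bulk library, and the mean CPM was 22.9-fold higher. The log2 change was 5.36 in the edgeR fit with its TMM scaling and 4.46 with total-count scaling. The edgeR fit did not call it (adjusted p = 0.0737) and DESeq2 did (adjusted p = 0.000117, log2 change 6.79). In GFP-negative libraries it had 0, 2713, 1209 and 2270 CPM.

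Within 500 bp of it lie 3 more of the 10 leading gRNAs. The gRNA chr8:43320826-43320847 had 785, 856, 576 and 716 CPM in bulk and 4578, 4743, 9345 and 5151 CPM in GFP-medium libraries. The gRNA chr8:43320967-43320988 had 1540, 1965, 2073 and 767 CPM in bulk and 4720, 31193, 15619 and 6908 CPM in GFP-medium libraries. Both were separated completely, with DESeq2 adjusted p-values of 0.00683 and 0.00164 and edgeR adjusted p-values of 0.290 and 0.223, after being picked by these same values. The gRNA chr8:43321185-43321207 had 446 to 760 CPM in bulk and 2459, 6719, 1375 and 15864 CPM in GFP-medium libraries, with replicate 4 highest. The first of these and the leading gRNA are the 2 sites of the Zfp42 line that the study sequenced deeply, each listed 1 base higher there; the study picked them, so their values are a description.

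Not every neighbour behaved alike. The gRNA chr8:43321187-43321208, which overlaps chr8:43321185-43321207, had 26202, 556, 19003 and 57362 CPM in GFP-medium libraries against 820 to 1247 CPM in bulk, the highest single level of the cluster, but was below bulk in replicate 2. It was chosen after its values were seen. The gRNA chr8:43321432-43321453, 14.4 kb upstream, had 801, 2158, 691 and 1867 CPM in bulk and 0, 7.46, 0 and 0 CPM in GFP-medium libraries. It was called lower (edgeR adjusted p = 0.0315).

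At the promoter 4 gRNAs were among the 10 leading ones, 3 of them inside the first kilobase of the gene. The gRNA chr8:43306738-43306760 had 955, 1290, 1934.5 and 2097 CPM in bulk and 2700, 11335, 7954 and 5972 CPM in GFP-medium libraries. The gRNA chr8:43306951-43306972 had 368 to 785 CPM in bulk and 3856, 7461, 2997 and 4478 CPM in GFP-medium libraries. The gRNA chr8:43306846-43306867 had 677 to 1036 CPM in bulk and 1831, 2625, 6644 and 7380 CPM in GFP-medium libraries. All 3 were separated completely, with DESeq2 adjusted p-values of 0.000285, 0.000232 and 0.000296 and edgeR adjusted p-values of 0.361, 0.214 and 0.351. Being picked by these same values, they are a description. The fourth, chr8:43307762-43307784, lies 765 bases upstream and had 1416 to 2648 CPM in bulk and 2956 to 13347 CPM in GFP-medium libraries.

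In GFP-negative libraries the 3 gRNAs inside the gene start had means of 2853, 2421 and 2343 CPM. The leading gRNA 2 to 5 kb upstream, chr8:43311149-43311170, went from 575 ± 297 CPM in bulk to 5586 ± 4702 CPM in GFP-medium and 198 CPM in GFP-negative libraries. The other one of that stretch, chr8:43309597-43309619, had 5681 CPM in bulk replicate 1 and 5735 CPM in GFP-medium replicate 1, so that the groups overlapped, and it was not called by DESeq2 (adjusted p = 0.188). In the middle gene body the leading gRNA was chr8:43300139-43300160, at 893 ± 349 CPM in bulk and 1471 ± 677 CPM in GFP-medium libraries (DESeq2 adjusted p = 0.0658).

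**Figure D4:**
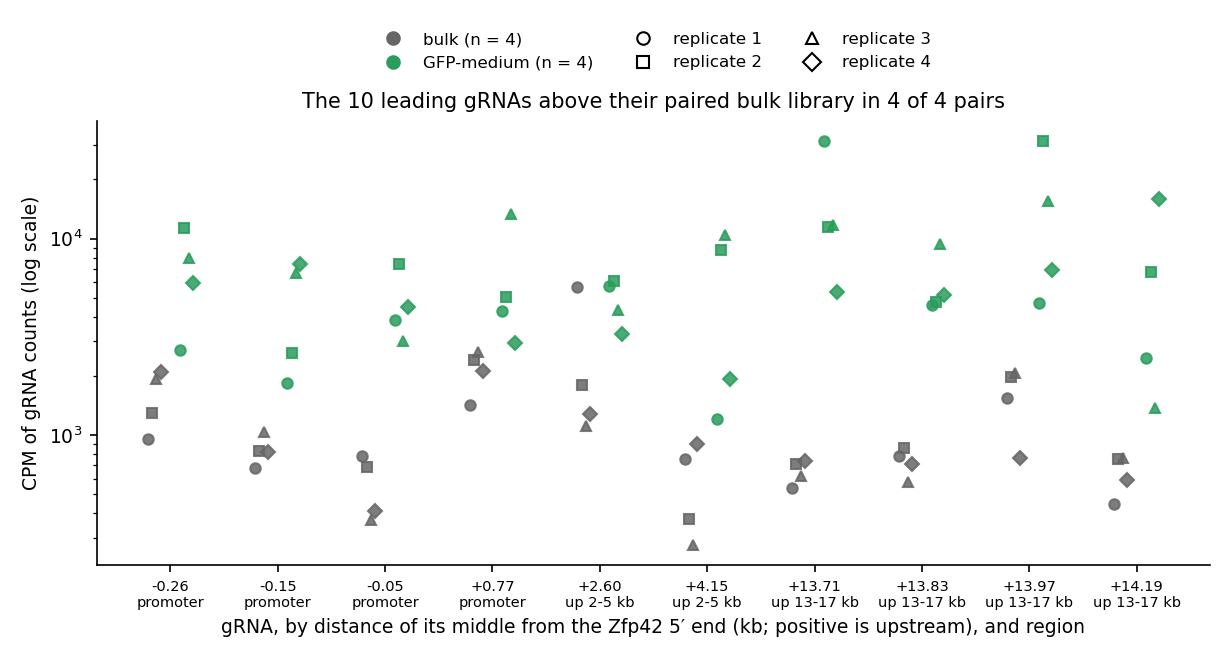
CPM (log scale) of the 10 gRNAs with the highest mean GFP-medium level among those above their paired bulk library in 4 of 4 pairs, ordered by distance from the Zfp42 5′ end in kb; bulk is grey, GFP-medium green, and the symbol shape gives the replicate. The leading gRNA at 13.7 kb spans 5353 to 31342 CPM in GFP-medium libraries above 539 to 742 CPM in bulk.

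Among the targets whose bases are printed above, chr8:43306979-43307000, which spans bases just inside the annotated start, had 246, 12.1, 806 and 895 CPM in bulk and 401, 559, 4619 and 5670 CPM in GFP-medium libraries. The gRNA chr8:43307208-43307229, upstream of the start, had 493, 277, 576 and 230 CPM in bulk and 1284, 3244, 2659 and 889 CPM in GFP-medium libraries, all above all bulk libraries. The gRNA chr8:43307009-43307030, at the start itself, had 262 to 675 CPM in bulk and 0, 18583, 2281 and 1488 CPM in GFP-medium libraries, so replicate 1 lacked it. The pair that starts at the same base parted in GFP-medium replicate 2. There chr8:43307067-43307088 had 3225 CPM and chr8:43307067-43307089 had 3.73 CPM, and neither had a count in the other 3 GFP-medium libraries, although bulk libraries held 115 to 793 CPM of the former and 207 to 539 CPM of the latter.

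The 5 gRNAs called lower with the highest bulk level lie in 4 regions. The gRNA chr8:43291848-43291870, downstream of the gene, had 2879, 1205, 1497 and 1739 CPM in bulk and no count in any GFP-medium library, at least 104-fold lower when each GFP-medium library is set to 3 counts (edgeR adjusted p = 0.0148). The gRNAs chr8:43354740-43354762, 47.7 kb upstream, and chr8:43288647-43288669, downstream, were at least 77.0-fold and 73.2-fold lower on the same floor, with edgeR adjusted p-values of 0.0138 and 0.0132. The gRNA chr8:43304190-43304212 in the gene body had 1151 to 3095 CPM in bulk and 7.46 CPM in GFP-medium replicate 2 alone (edgeR adjusted p = 0.0396). None of these 4 had more than 35.6 CPM in any GFP-negative library.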

How the data were processed

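Genomic DNA of 4 bulk and 4 GFP-medium populations was analysed, with 4 GFP-negative libraries of the same line in the model fits. The values are raw counts per gRNA as deposited by the authors, made from PCR libraries per the labels' protocols. Positions are mm10, per the submitters' processing notes. The counting program was not given in the sources used. PCR counts without molecular identifiers are not independent molecules, so a floor of 3 counts covers counting error only.

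Placeholder counts were left out. gRNAs were kept by filterByExpr (minimum count 10), scaled by TMM and fitted with edgeR 4.0.16 in R 4.3.3. The fit used all 12 libraries with population as the term, and tile sums were scaled by total counts. The SE printed with an edgeR change is that change divided by the t quantile of its p-value. DESeq2 1.42.0 with poscounts size factors and voom of limma 3.58.1 were alternatives, as were other filters, scalings and tile sizes and each library left out. Shares were compared by exact permutation tests (scipy 1.17.1), and plots were drawn with matplotlib 3.10.9. The fits were tested on counts simulated around bulk means. That simulation did not model the many zeros and dominant gRNAs of GFP-medium libraries, so it does not speak of such data.

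The labels tie each number to the same replicate of the line, and deviations of same-numbered bulk and GFP-medium libraries from their group means correlated by 0.255, 0.229, 0.156 and 0.176, against -0.131 to -0.0110 for other numbers. Deviations from a group mean cancel out within the group, so positive values for same numbers force some values for other numbers below them to be negative. The contrast is thus partly fixed in advance, and the pairing rests on the labels. The main fits and the main permutation tests left the pairing out. The replicate number was fitted as a block in an alternative, and regions were also tested by swaps within pairs, where p cannot fall below 0.125.

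Regions, tiles and the rule for named gRNAs were chosen with earlier results of these data known. Named are the 10 gRNAs with the highest mean GFP-medium share among those above paired bulk in all 4 pairs, the leading one of each region among these, the 5 called lower with the highest bulk share, the GFP-targeting gRNAs and those on the study's deep-sequencing list; others are said to be chosen after their values were seen. Named are also the tiles called higher and the 5 with the smallest p among those lower.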

Additional observations from a re-analysis of the deposited data

Results flagged for a closer look

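A gap test within each group of 4 libraries (Dixon's, 95% level) was run on 78 groups and set 10 apart. For normally distributed values chance does so in about 5% of groups. Some groups were strongly skewed, such as GFP gRNA 8 in GFP-medium libraries, so 10 of 78 cannot be read as an excess over chance. In bulk, replicate 1 stood above the others for the stretch 2 to 5 kb upstream at 8.985% of counts, for chr8:43309597-43309619 at 5681 CPM and for chr8:43304190-43304212 at 3094.5 CPM. Among GFP-medium libraries, replicate 3 stood apart for chr8:43320826-43320847 at 9345 CPM, for GFP gRNA 3 at 230.5 CPM and for GFP gRNA 8 at 6307 CPM. Replicate 2 stood apart for GFP gRNA 4 at 4911 CPM and, as the only GFP-medium library with counts, for chr8:43304190-43304212 and chr8:43321432-43321453 at 7.46 CPM each. For these 2 gRNAs, which were named for being called lower, the other 3 GFP-medium libraries were at 0, so any count in the fourth would have set it apart, and they say nothing beyond that. Replicate 4 stood apart for GFP gRNA 7 at 114.5 CPM. Of the 10 values, 4 belong to GFP-targeting gRNAs in GFP-medium libraries.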

How the results depend on the processing

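The 7 changed regions kept their direction under all 16 alternatives run for each, except the nearer downstream stretch, whose log2 ratio turned to 0.139 when detected gRNAs were counted in place of counts (adjusted p = 0.0317). Under that setting the cluster 13 to 17 kb upstream lost its call (0.00579), while the GFP-targeting gRNAs (1.186), the middle gene body (0.303) and the 3′ end (0.597) gained one. Without each library's most counted gRNA of a region the GFP-targeting gRNAs were called lower (-2.02), under a setting that lowered the log2 ratio of every region. Leaving out 1 library at a time gave log2 ratios of 0.816 to 1.047 for 2 to 5 kb upstream, the lowest without GFP-medium replicate 1. With 3 libraries against 4 the smallest possible p of the permutation test is above 0.05, so those values carry no test.

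The number of gRNAs called higher was 0 in the edgeR fit, 2 with bulk and GFP-medium libraries only, 3 with TMMwsp scaling and 33 with DESeq2. It ranged from 0 to 2 when 1 library was left out, and the 2 appeared without GFP-medium replicate 3 and without replicate 4. In both of these cases and with TMMwsp, chr8:43304251-43304272 was among the calls, a gRNA above paired bulk in GFP-medium replicate 1 alone. The number called lower was 119 with limma-voom, 564 with no filter and 0 with replicates 3 and 4 alone, and ranged from 257 to 482 when 1 library was left out, the highest without GFP-medium replicate 2. With the replicate block it was 391, of which 264 were shared with the 265 of the fit without the block.

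The number of 1-kb tiles called higher was 6 with bulk and GFP-medium libraries only, with or without the replicate block, 7 with TMM, 5 with DESeq2 and 0 with replicates 1 and 2 or 3 and 4 alone, and 1 to 3 with 1 library left out. The number called lower was 3 with the replicate block, 6 with bulk and GFP-medium libraries only, 13 with both choices together (an alternative added after the data were seen), 1 with TMM, 4 with DESeq2, 5 with 2-kb tiles, 1 when tiles with at least 1 counted gRNA were kept, and 0 to 4 with 1 library left out. Of single named gRNAs, 9 gained a call with DESeq2, which called 33 of all 1342 tested gRNAs higher (2.46%). All 9 were named for being above paired bulk in all 4 pairs, so a high share of calls among them was built in. Among the named gRNAs called, none changed direction with DESeq2, total-count scaling or the replicate block. Depth limits low values: 1 count in the shallowest bulk library is 25.6 CPM.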

Other observations

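Counted and uncounted gRNAs differed in the base at the 5′ end of the spacer. Among the 94 gRNAs with targets read in the promoter windows of Zfp42 and Triml2, all 45 with a count in the line had a spacer that starts with G. The 49 with no count in any of the 12 libraries started with A (8), C (21) or T (20). Over the whole library, 713 of 716 gRNAs with a 22-bp interval were counted, against 996 of 3192 with a 23-bp interval. The targets outside these windows were not read as bases.

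Near-identical gRNAs often parted in the sorted libraries. There were 124 pairs of gRNAs whose intervals share their start or end, differ by 1 base in length and had counts in all 4 bulk libraries, as the choice of pairs required. In GFP-medium replicates 1 to 4, 37, 39, 37 and 43 of these pairs had counts for only 1 of the 2 gRNAs. At least 10-fold apart (with the lower set to at least 1 count and the higher at least 10) were 34, 49, 42 and 43 pairs in GFP-medium and 1, 1, 7 and 3 pairs in bulk libraries. The cause was not tested.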
